A study of Mus musculus with 12 samples.

Results

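The transcriptome of mouse CD8 T cells that had been activated and expanded in interleukin 2 (IL-2) was described from the 3 vehicle libraries of a series of 12. The 3 were chosen by their titles alone, which name the vehicle treatment, and the other 9 libraries, treated with genipin, NAC or both, were not used. The cells came from pmel-1 mice, which carry a transgenic T cell receptor against a peptide of the melanocyte protein gp100, and were wildtype for Ucp2. They were stimulated either with 1 μM of the gp100 peptide or with plate-bound anti-CD3 at 2 μg/ml and soluble anti-CD28 at 1 μg/ml, and the labels do not say which route these libraries had. IL-2 was present at 10 ng/ml over the 4 days of expansion, and vehicle was culture medium. The labels give the replicates as numbers 1 to 3 without saying whether they came from separate mice or cultures, so every SD below is the spread between these libraries, which may be technical. Levels are in TPM, the share of transcripts after division by their length, scaled to the same total in each library, so that genes can be set side by side, and each "mean ± SD" is over n = 3 libraries. With 3 libraries an exact paired permutation test cannot go below p = 0.25 two-sided, so the levels of different genes are compared by their values and by whether their ranges over the libraries overlap.

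Activation turns a resting CD8 T cell into a dividing killer cell. The T cell receptor and the CD3 chains carry the antigen signal, CD28 and related receptors add to it, and IL-2, bound by a receptor of 3 chains, sustains growth through JAK kinases and STAT5. Effector CD8 T cells store perforin and granzymes, proteases that trigger death in the target cell, and run on high glucose uptake and lactate export. T-box factors, BLIMP1 and Id2 are known for the effector program, and TCF1, Id3 and BCL6 for the memory program.

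Each library held between 24585360 and 29150867 expected counts, the fractional read counts that RSEM assigns to genes. Genes with at least 1 TPM numbered 11623, 11592 and 11571 in the 3 libraries, and 11174 of the 55450 listed genes reached it in each. The libraries were close to each other: Pearson's r of log2 (TPM + 1), across 21951 protein-coding genes within each pair of libraries, was 0.998 in each of the 3 pairs, and genes are not independent replicates. Among the 6737 protein-coding genes with a mean of at least 10 TPM, the median coefficient of variation over the libraries was 3.71%, and 16 genes exceeded 25%, a limit set after the values were seen. For a gene with no counts, the limit of detection was taken as 3 counts, which covers counting error only and equals 0.137, 0.134 and 0.115 TPM in the 3 libraries for a transcript of 1000 effective bases.

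Sequences that carry the main results are shown first. Most granzyme genes lie in a cluster on chromosome 14, and for 6 of them the coding sequences (GENCODE M21, GRCm38) were compared to see how far reads can tell them apart. The 60 bases below are coding bases 18 to 77 of each gene on the minus strand, and the 24 positions at which the 6 genes differ are in capitals. Each window crosses an intron, so the genomic spans are longer than 60 bases: Gzmb chr14:56261213-56262132, Gzmc chr14:56234006-56234565, Gzmd chr14:56131359-56132505, Gzme chr14:56119427-56120539, Gzmf chr14:56207038-56211340 and Gzmg chr14:56158424-56159507.
Gzmb: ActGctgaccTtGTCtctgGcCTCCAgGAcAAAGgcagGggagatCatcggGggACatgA
Gzmc: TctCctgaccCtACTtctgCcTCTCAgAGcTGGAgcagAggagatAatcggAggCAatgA
Gzmd: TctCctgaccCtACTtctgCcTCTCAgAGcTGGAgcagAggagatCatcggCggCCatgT
Gzme: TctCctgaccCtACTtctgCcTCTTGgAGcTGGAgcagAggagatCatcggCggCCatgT
Gzmf: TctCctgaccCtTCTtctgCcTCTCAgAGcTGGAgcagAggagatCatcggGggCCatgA
Gzmg: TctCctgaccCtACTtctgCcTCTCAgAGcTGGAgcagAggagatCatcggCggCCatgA
Gzmd and Gzme were 93.3% identical over their coding sequences and Gzme and Gzmg 89.3%, against 75.6% for Gzmb and Gzmc and 54.7% for Gzma and Gzmb. Stretches of 100 bases were nearly all particular to 1 gene even so: Gzmd shared 2 of its 865 transcript windows of that length with another gene, Gzmg 2 of 810, and Gzme 0 of 817.

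The β chain variable segment that dominated the libraries was Trbv14, at chr6:41135145-41135616 (GRCm38, plus strand). Its last 90 annotated bases, chr6:41135527-41135616 in the coding exon, are printed because they end at the junction to the joining segment, and the TGT cysteine codon that opens the junction region is in capitals.
Trbv14: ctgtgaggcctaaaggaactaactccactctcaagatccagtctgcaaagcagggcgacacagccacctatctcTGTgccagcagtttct

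Mitochondrial genes have near-identical copies on chromosome 1. The 60 bases below hold the only mismatch of mt-Co1 with its copy, the unprocessed pseudogene Gm29216, within the 483 bases aligned. Gm29216 has 492 bases, and the local alignment left out those at its 5' end, next to this window. The mismatch, A1066T counted from base 1 of the mt-Co1 transcript, is in capitals. The mt-Co1 window is at chrM:6390-6449 on the plus strand and the Gm29216 window at chr1:24616129-24616188 on the minus strand (GRCm38).
mt-Co1: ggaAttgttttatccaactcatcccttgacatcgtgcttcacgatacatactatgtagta
Gm29216: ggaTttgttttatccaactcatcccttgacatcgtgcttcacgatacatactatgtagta

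A small number of genes held a large share of the transcripts. The 114 genes with the highest mean TPM summed to 500000 TPM, and by CPM of the expected counts, which are not divided by length, the same share took 519 genes. The 30 highest nuclear protein-coding genes held 21.9 ± 0.194% of TPM and 10.7 ± 0.0628% of the counts. The 86 ribosomal protein genes held 33.1 ± 0.244% of TPM and 14.5 ± 0.125% of the counts. Eef1a1, the elongation factor that brings aminoacyl-tRNA to the ribosome, was the highest gene of all with 20963, 21799 and 22144 TPM. Among nuclear protein-coding genes Tmsb4x, which binds actin monomers, followed with a mean of 13942 ± 302 TPM, then Rps18 with 11125 ± 217 and Rplp1 with 10755 ± 936 TPM, both ribosomal proteins. Gzmb, the protease granzyme B, ranked 5 among nuclear protein-coding genes with 10036, 9929 and 10197 TPM. In the top 30, the genes that were neither ribosomal nor Eef1a1, Tmsb4x or Gzmb were Gapdh, a glycolytic enzyme, with 4993 ± 40.4 TPM, Ifitm1, an interferon-induced membrane protein, with 4821 ± 133 TPM, and Tpt1, a translationally controlled protein, with 4598 ± 106 TPM. The plot of level against rank shows that Gzmb stood among the ribosomal protein genes. The T cell receptor gene Trbc2 was lower at a mean of 3401 TPM, and the IL-2 receptor and lineage factors were spread far below both along the level axis.

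**Figure D1:**
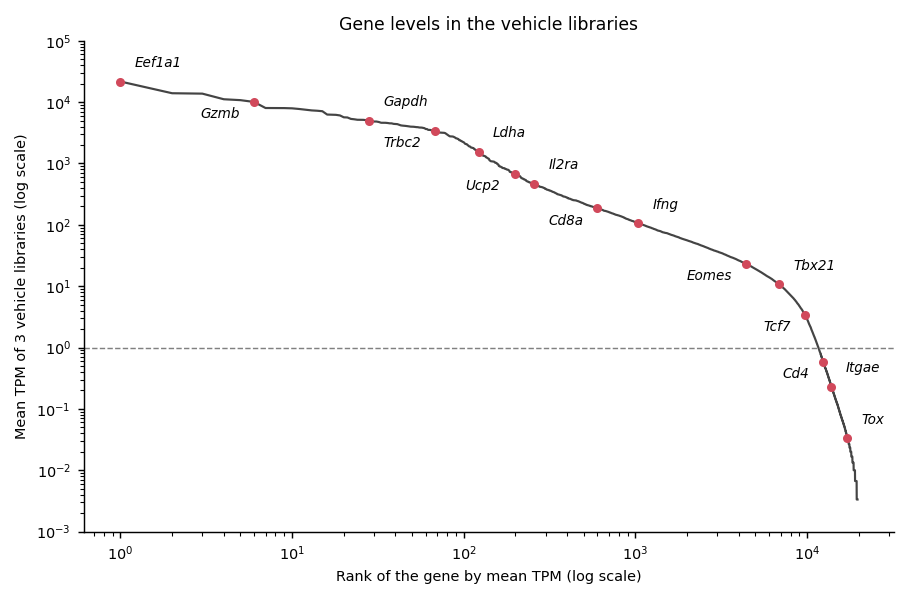
Mean TPM of the 3 vehicle libraries (log scale) against the rank of the gene by mean TPM (log scale). The line stands for all genes with a TPM above 0, the points for 15 named genes, and the dashed line marks 1 TPM. Eef1a1 is at the top left, Gzmb at about 10054 TPM is close behind it, and Itgae, Cd4 and Tox lie below 1 TPM.

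The lineage of the cells was plain in the T cell receptor genes. All 11 of 11 constant chain and CD3 genes reached 1 TPM in each library with a median of 252 TPM, against 10234 of 21951 protein-coding genes (46.6%) with a median of 0.5 TPM. Trbc2, a constant region of the β chain, stood at 3377, 3410.1 and 3416 TPM, and Trbc1, the other one, at 689.6, 692 and 692 TPM. The ranges did not overlap, and Trbc2 was 4.92 ± 0.0210 times Trbc1. Trac, the only α constant region, was at 464 ± 8.26 TPM. Of the CD3 chains that couple the receptor to the kinases, Cd3g was highest at 883, 875 and 911 TPM, Cd3d was at 430.4 ± 6.26 and Cd3e at 252 ± 7.62 TPM, and Cd247, the ζ chain, was lowest at 149.5 ± 3.32 TPM. Cd3g was 3.53 ± 0.114 times Cd3e, its partner in the complex.

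Variable segments of the 2 receptor chains differed in how far 1 segment led. Trbv14 took 98.1 ± 0.0377% of the counts on the 22 Trbv genes, with 4824, 4748 and 4898 TPM. It is the variable segment of the transgenic pmel-1 β chain. The next, Trbv13-1, was at 31.0 ± 5.06 TPM and Trbv29 at 22.6 ± 2.41 TPM. On the α side no segment led in this way: Trav12-2 was the highest of 108 Trav genes, with 74.1, 72.0 and 74.4 TPM, and took 14.5 ± 0.232% of the Trav counts. All Trav genes together summed to 606 ± 14.5 TPM, and all Trbv genes to 4911 ± 74.3 TPM. The α values are the less certain ones, since 34 of the 128 Trav transcripts compared, pseudogenes included, have an identical copy: Trav15n-2 and Trav15d-2-dv6d-2 are identical over 398 bases and had the same TPM in each library (58.4 ± 3.35 each), as had Trav7d-5 and Trav7n-5 (identical over 340 bases, 38.5 ± 0.0954 each). Summed over its copies, each of these sequences stood above Trav12-2 in TPM. The lead of Trav12-2 therefore holds only with every copy counted as a separate gene. The 74 joining and diversity segments had an effective length of 0 and no counts, so their use could not be read from these files. Constant regions of the γ chain were present as well: Tcrg-C4 was at 56.8, 54.0 and 60.9 TPM and Tcrg-C2 at 50.6, 48.1 and 51.5 TPM, while Trdc, the δ constant region, was at 2.04, 2.12 and 2.28 TPM.

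The coreceptor genes marked the cells as CD8 T cells. Cd8b1, the β chain of the CD8 coreceptor, was at 230.2, 235 and 237 TPM and Cd8a, the α chain, at 184, 184 and 189 TPM, without overlap and at a ratio of 1.26 ± 0.0130. Cd4 was at 0.38, 0.63 and 0.75 TPM, under 1 TPM in each library. The CD4 coreceptor was thus at the level of a scarce transcript. Among surface proteins of T cells, Cd52 was at 2560 ± 22.2, Thy1 at 1081 ± 2.47, Ly6a at 1024 ± 10.4 and Cd53 at 764 ± 12.1 TPM. The pair Ly6c2 and Ly6c1 differed widely although 97.7% of their coding bases are identical: Ly6c2 was at 1186, 1195 and 1229 TPM and Ly6c1 at 0.66, 0.96 and 1.04 TPM. All 15 of 15 signalling proteins of the receptor reached 1 TPM in each library, beside 46.6% of all protein-coding genes. Lck, the kinase that phosphorylates CD3, was highest at 454 ± 6.86 TPM, and Zap70, which it activates, was at 122 ± 0.665 TPM. The phosphatase Ptpn22 was at 234 ± 4.26 and the adaptor Lat at 181 ± 3.41 TPM.

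Of the 122 receptor genes listed, 92 (75.4%) reached 1 TPM in each library, beside 46.6% of all protein-coding genes. The 3 chains of the IL-2 receptor were among the highest: Il2ra, the α chain, at 462, 455 and 478 TPM, Il2rb, the β chain, at 448, 453 and 455 TPM, and Il2rg, the chain shared with other cytokines, at 312, 313 and 323 TPM. The ranges of Il2ra and Il2rb overlapped, and both lay above Il2rg in every library. Il21r was at 79.1 ± 1.89 and Il7r, the receptor chain for IL-7, at 74.4 ± 1.68 TPM, while Il9r was at 0.05 ± 0.0346 TPM. The kinases that signal below these receptors followed the same order in each library, Jak3 at 119 ± 2.09 TPM over Jak1 at 94.7 ± 0.668 TPM. Stat5b was at 30.6 ± 1.01 and Stat5a at 22.9 ± 0.512 TPM, and their ranges did not overlap.

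Several 2-chain receptors had 1 abundant and 1 scarce chain, pairs that were picked after their values were seen. Ifngr1, the ligand-binding chain of the interferon γ receptor, was at 238, 235 and 246 TPM, and Ifngr2, its signalling partner, at 0.77, 1.28 and 1.51 TPM. Tgfbr2, which binds TGF-β, was at 53.3, 54.7 and 53.0 TPM against 3.82, 4.37 and 3.99 TPM for Tgfbr1, its partner kinase. For IL-12 both chains were present, Il12rb2 at 101 ± 1.92 and Il12rb1 at 58.7 ± 1.67 TPM. Il18r1, which binds IL-18, was at 48.3 ± 3.08 TPM. Il1r1, the signalling receptor for IL-1, and Il6ra, the binding chain for IL-6, were near 0 at 0.00333 ± 0.00577 and 0.00667 ± 0.00577 TPM, and Il5ra had no counts, which allows up to 0.0597 TPM.

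Of the 24 chemokine and sphingosine receptors listed, 13 (54.2%) reached 1 TPM in each library, beside 46.6% of all protein-coding genes. Cxcr6, which binds CXCL16, was highest at 153, 147 and 151 TPM. Ccr7, which directs naive cells to lymph nodes, was at 66.9, 66.6 and 69.5 TPM and Ccr2, which binds CCL2, at 65.8, 67.3 and 67.2 TPM, with ranges that overlapped. S1pr4 was at 29.6 ± 0.964, Cxcr4 at 24.9 ± 1.14 and S1pr1, the exit receptor of lymph nodes, at 22.5 ± 0.597 TPM. S1pr5, Ccr9 and Ccr10 had no counts in any library, which allows up to 0.0602, 0.0384 and 0.0912 TPM. Cx3cr1, a receptor of long-lived effector cells, was at 0.02, 0.06 and 0.04 TPM.

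Inhibitory receptors reached 1 TPM in each library in 12 of 14 cases, beside 46.6% of all protein-coding genes. Ctla4, which competes with CD28 for its ligands, led with 216, 212 and 215 TPM, Lag3 followed with 125, 126 and 123 TPM and Tigit with 114, 124 and 117 TPM. The ranges of Lag3 and Tigit overlapped, and both lay below that of Ctla4. Havcr2, which encodes TIM-3, was at 73.2 ± 0.728 and Pdcd1, which encodes PD-1, at 44.4 ± 0.552 TPM. Costimulatory receptors were led by Tnfrsf9, which encodes 4-1BB, with 551, 598 and 576 TPM, and Tnfrsf18, which encodes GITR, with 185, 199 and 188 TPM. Cd28 was at 68.0 ± 2.29 TPM and Icos at 72.2 ± 1.88 TPM, with ranges that overlapped. Cd40lg, the CD40 ligand, was at 0.48 ± 0.305 TPM. The plot of receptor levels gives each library's value and shows that the libraries coincide for receptors above 1 TPM and scatter below it.

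**Figure D2:**
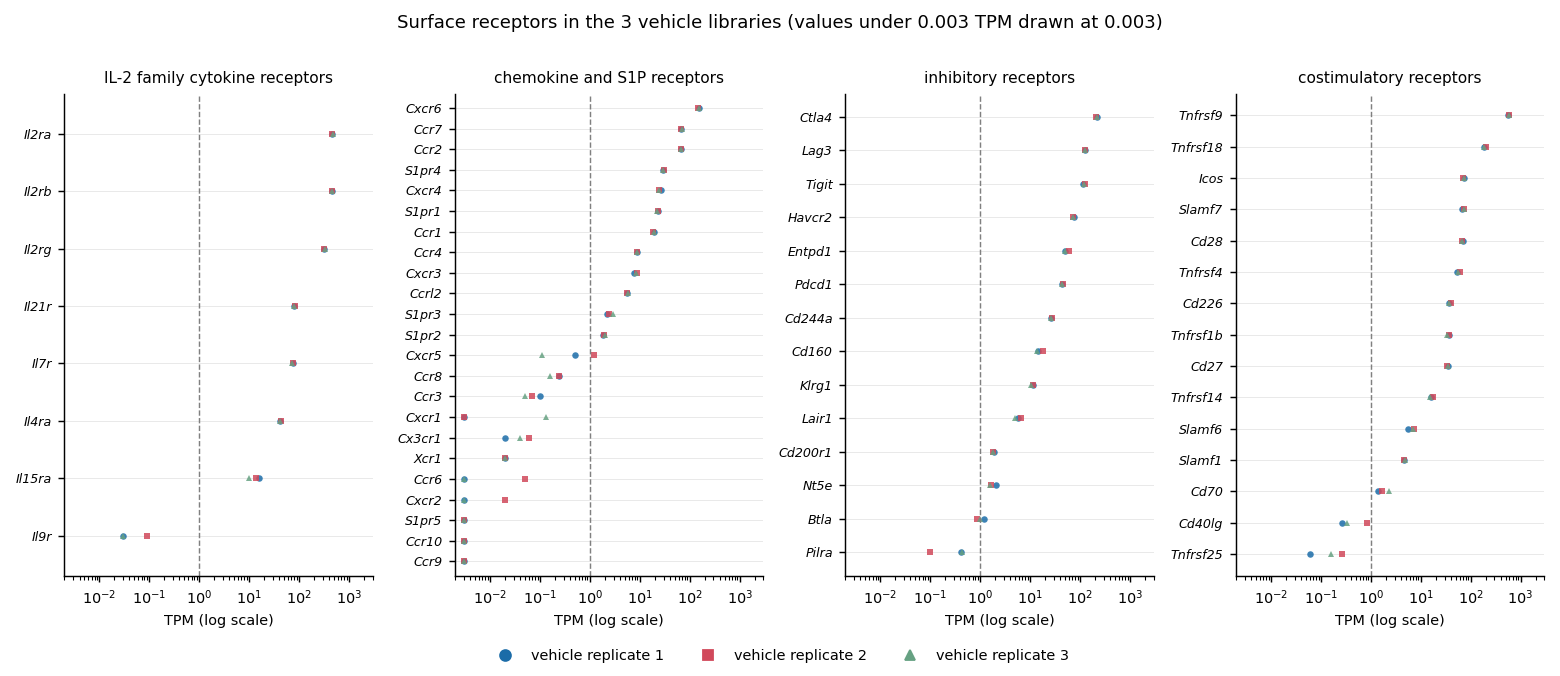
TPM (log scale) of members of 4 groups of surface receptors, ordered by mean TPM within each group, with 1 mark per vehicle library. Values under 0.003 TPM are drawn at 0.003 and the dashed line marks 1 TPM. Tnfrsf9, Il2ra and Il2rb lie farthest right, and S1pr5, Ccr9 and Ccr10 lie at the left edge.

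Adhesion receptors showed an uneven pairing of integrin chains. Itgb7, the β7 chain, was at 315, 324 and 302 TPM, while its partner Itgae, which makes the receptor that holds cells in epithelium, was at 0.25, 0.2 and 0.24 TPM. The other partner of Itgb7, Itga4, was at 9, 8.8 and 8.97 TPM. For the integrin LFA-1 both chains were high: Itgb2 was at 453 ± 4.02 and Itgal at 194 ± 1.22 TPM. Selplg, the selectin ligand, was at 538 ± 8.97 TPM, and Cd69, an early activation marker, at 278 ± 2.95 TPM. Cd44, a hyaluronan receptor that marks activated cells, was at 52.9, 51.9 and 51.5 TPM. Receptors of the NK type were present: Klrd1, which encodes CD94, was at 257 ± 11.7 TPM, Klrk1, which encodes NKG2D, at 218 ± 1.80 TPM, and its adaptor Hcst at 147 ± 10.9 TPM, against 9.52 ± 0.408 TPM for the other adaptor, Tyrobp. Ncr1, a defining NK cell receptor, was at 0.0567 ± 0.0153 TPM.

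Granzymes were the largest effector group, with 18484 ± 237 TPM or 1.85 ± 0.0237% of all TPM in 10 genes. Gzmb held 54.4 ± 0.106% of this sum. Gzmc was at 3147, 3175 and 3184 TPM, Gzmd at 1777, 1820.2 and 1875 TPM, and Gzma, a tryptase that is only 54.7% identical to Gzmb, at 1618, 1534 and 1612 TPM. Gzmb was 3.17 ± 0.0404 times Gzmc and 6.33 ± 0.135 times Gzma, and none of these ranges overlapped. The order Gzmb, Gzmc, Gzmd, Gzma held in each library. Gzmg, Gzme and Gzmf were at 781 ± 21.1, 656 ± 3.24 and 411 ± 5.05 TPM. The remaining 3 granzymes stood far below the rest: Gzmk at 1.19, 1.17 and 1.72 TPM, Gzmn at 0.6, 0.6 and 0.41 TPM and Gzmm at 0.39, 0.25 and 0.36 TPM. Thus 8 of 10 reached 1 TPM in each library, beside 46.6% of all protein-coding genes. The other granule genes were all present, 14 of the 15 symbols listed being in the tables: Srgn, the proteoglycan that packs granzymes, was at 1082 ± 11.1, Nkg7 at 1021 ± 15.7 and Prf1, the pore former perforin, at 384, 389.8 and 387 TPM. The cathepsin Ctsw was at 168 ± 1.27 TPM. Serpinb9, which protects the killer cell from granzyme B, was at 73.4 ± 1.48 TPM, and the related Serpinb6b at 156 ± 1.85 TPM.

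Among secreted factors, 16 of 27 cytokines and death ligands (59.3%) were at 1 TPM or more in each library, beside 46.6% of all protein-coding genes. Spp1, which encodes osteopontin, led with 667, 615 and 626 TPM. Tgfb1 was at 117 ± 2.19, Ltb, lymphotoxin β, at 103 ± 2.14, and Ifng, interferon γ, at 109, 100 and 109.8 TPM. Tnf was at 44.6, 42.6 and 40.5 TPM, and Ifng was 2.50 ± 0.190 times Tnf. Interferon γ thus stood above tumour necrosis factor in each library. Osm and Lif, cytokines of the IL-6 family, were at 68.5 ± 0.354 and 67.7 ± 1.78 TPM, and Fasl, a death ligand, was at 46.0 ± 1.81 TPM. Il2, the cytokine that was supplied in the medium, was at 0.18, 0.05 and 0 TPM, that is 3.58, 1.02 and 0 expected counts, and Il3, Il4, Il5, Il9, Il13, Il17a, Il17f, Il21 and Il22 were each under 1 TPM in each library. Among chemokines, which draw other leukocytes, Ccl5 led with 430.1, 449 and 447 TPM, followed by Ccl4 with 61.7, 55.5 and 56.9 TPM and Ccl3 with 18.2, 18.4 and 19.3 TPM. Xcl1 was at 4.66 ± 0.441 TPM, and Cxcl9 had no counts.

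Transcription factor families, counted as 27 families with a summed mean of at least 5 TPM, were led at least 2 times by 1 member in 17. The JAK kinases were counted with them. The leader was the highest member in each library in 26 of the 27. In the T-box pair, Eomes was at 23.4, 23.4 and 21.8 TPM and Tbx21, which encodes T-bet, at 11.4, 10.5 and 10.5 TPM, a ratio of 2.12 ± 0.0901 with no overlap. Lef1 was at 27.7, 34.1 and 28.4 TPM and Tcf7, which encodes TCF1, at 3.13, 3.19 and 3.76 TPM, so Lef1 was 9.04 ± 1.57 times Tcf7. Within each of these pairs the members thus stood in unequal amounts, and Lef1 was the more abundant of its pair. The summed means of the pairs were close, 33.63 TPM for Eomes and Tbx21 and 33.45 TPM for Lef1 and Tcf7. Id2, which holds E proteins inactive, was at 416, 408 and 417 TPM and Id3 at 2, 1.99 and 1.54 TPM. Prdm1, which encodes BLIMP1, was at 16.0, 16.6 and 15.9 TPM and Bcl6, its antagonist, at 0.44, 0.39 and 0.47 TPM. Each of these 4 pairs had the same higher member in all 3 libraries.

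Other families had more balanced members. Runx2, at 26.1, 25.1 and 27.9 TPM, and Runx3, the factor that silences Cd4 in CD8 cells, at 25.1, 24.9 and 26.5 TPM, overlapped, and Runx1 was at 3.85 ± 1.13 TPM. Patz1 and Zbtb7a were at 22.7 ± 0.576 and 22.5 ± 0.432 TPM with overlap, and by CPM of the expected counts Zbtb7a was the higher, and Zbtb7b, the ThPOK factor of the CD4 lineage, was at 14.9, 18.2 and 15.4 TPM. Irf1, Irf4 and Irf8 were at 71.1 ± 3.14, 63.4 ± 0.991 and 61.0 ± 1.25 TPM. The IRF family had no single dominant member, and by CPM of the expected counts Irf4 stood above Irf1. Zeb1 was at 10.1 ± 0.946 and Zeb2 at 4.78 ± 0.866 TPM, at a ratio of 2.16 ± 0.520. The NFAT family was led by Nfatc3 with 37.6 ± 0.929 TPM over Nfatc1 with 18.9 ± 0.807 TPM. All 7 STAT genes reached 10 TPM in each library, beside 6551 of 21951 protein-coding genes. Stat3, Stat6 and Stat4 stood above both Stat5 genes on average.

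Among factors induced by activation, 1 member of each family was the highest in each library, by unequal margins. The JUN, FOS and NR4A families did not count as led, with leader means 1.88, 1.46 and 1.97 times the next. Junb was at 365, 371 and 342 TPM, Jund at 191 ± 13.6 and Jun at 29.4 ± 2.14 TPM. Batf3 was at 136, 141 and 129 TPM and Batf, of the same family, at 65.5, 63.5 and 60.9 TPM, a ratio of 2.14 ± 0.0775. Egr1, an immediate early factor, stood at 335, 343 and 350.1 TPM, far above Egr3 at 7.93, 8.13 and 9.11 TPM and Egr2 at 4.71, 5.13 and 5.33 TPM. The 3 EGR members are induced together by receptor signals, and their levels here were far apart. Nfkb1 led its family with 169.5 ± 3.01 TPM, Myc, which drives growth after activation, was at 218, 218 and 215 TPM, and Hif1a, the oxygen-sensing factor, was at 126, 119 and 117 TPM. Among KLF factors Klf6 was at 101 ± 1.58 and Klf2, which sustains S1pr1, at 9.26 ± 0.658 TPM. Tox4 led the TOX family with 29.1 ± 0.907 TPM while Tox, known from exhausted cells, was at 0.01, 0.03 and 0.06 TPM and Tox2 at 0.00667 ± 0.0115 TPM. Foxp3, the regulatory T cell factor, was at 0.01, 0.04 and 0 TPM. The plot of transcription factors by family shows the wide gaps in the Id, BLIMP1, EGR and TOX groups beside the narrow ones in RUNX and IRF.

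**Figure D3:**
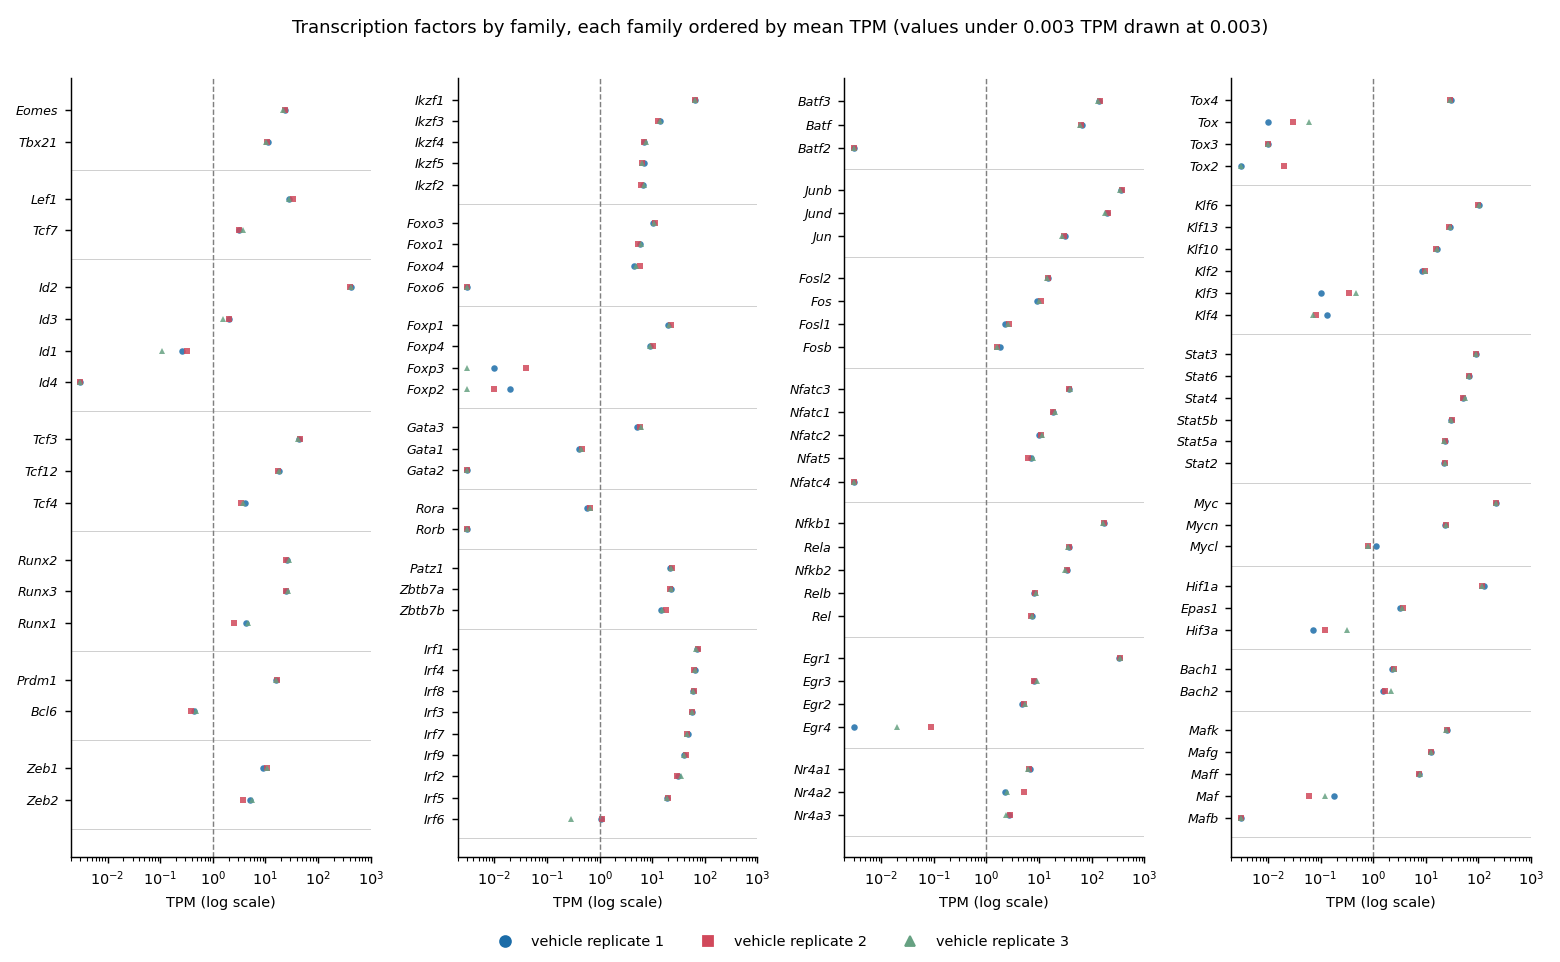
TPM (log scale) of members of the listed transcription factor families in 4 panels, with 1 mark per vehicle library, each group ordered by mean TPM and set off by a line. Values under 0.003 TPM are drawn at 0.003 and the dashed line marks 1 TPM. Id2, Junb and Egr1 lie farthest right, and Tox, Tox2, Tox3 and Foxp3 lie below 1 TPM.

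In metabolic families 1 isozyme led more often than not: 34 of 48 families were led at least 2 times and 20 at least 5 times, and the leader held over 90% of the sum in 18. In glycolysis, Slc2a3, which encodes GLUT3, was at 77.5, 76.9 and 77.8 TPM and Slc2a1, which encodes GLUT1, at 40.6, 40.2 and 39.6 TPM, a ratio of 1.93 ± 0.0307. Hk1 was at 58.0, 57.7 and 57.7 TPM and Hk2 at 38.2, 41.5 and 39.2 TPM, a ratio of 1.46 ± 0.0650 with no overlap. Pfkp, the platelet-type phosphofructokinase, held 74.1 ± 1.5% of its family at 168, 169.8 and 191 TPM, over Pfkl at 49.9 ± 0.755 TPM. The 3 early steps thus differed, with the glucose transporter and hexokinase pairs closer to balance than phosphofructokinase. Aldoa was at 2209 ± 37.2 and Aldoc at 107 ± 3.17 TPM. Pgk1 was at 2309.6, 2302 and 2386 TPM and Pgk2, the testis form, had no counts, so Pgk1 was at least 23626-fold higher than the level 3 counts per library allow. Pkm was at 1101, 1093 and 1066 TPM and Pklr, the liver form, had no counts, at least 9036-fold lower. Ldha was at 1545, 1573 and 1572 TPM and Ldhb, the heart form, at 5.54, 6.08 and 5.68 TPM. Monocarboxylate transporters were led by Slc16a3, which encodes the lactate exporter MCT4, at 100.4 ± 1.56 TPM, over Slc16a6 at 35.1 ± 0.529 and Slc16a1, which encodes MCT1, at 21.6 ± 0.342 TPM.

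For enolase the choice could not be read firmly: Eno1 was at 824, 847 and 851 TPM and Eno1b at 449, 453 and 411 TPM, and their coding sequences are 99.4% identical. Of its windows of 100 bases Eno1 shared 59.0% and Eno1b 73.4% with another gene. Pyruvate dehydrogenase kinases were led by Pdk1 at 43.4 ± 1.44 over Pdk3 at 26.0 ± 0.573 TPM, and Pdk4 had no counts. Pfkfb3 led the bifunctional enzymes with 13.5 ± 0.415 TPM.

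Mitochondrial and biosynthetic families showed the same kind of choice. In the tricarboxylic acid cycle, Mdh2 was at 288 ± 7.66 against 164 ± 3.84 TPM for Mdh1. The isocitrate dehydrogenase group had Idh3g and Idh3b, 2 subunits of 1 enzyme, at 132 ± 2.68 and 129.7 ± 2.32 TPM with overlap (Idh3b was the higher by CPM of the expected counts), and Idh2 and Idh1 at 18.2 ± 1.07 and 13.2 ± 1.60 TPM. In this group the 3-subunit mitochondrial enzyme stood above the single-gene forms. Lipid synthesis genes were led by Acaca with 25.5 ± 1.5 TPM over Acacb with 0.41 ± 0.101 TPM and Scd2 with 290.1, 284 and 291 TPM over Scd1 with 66.2, 72.5 and 53.7 TPM. Cpt1a, the gate of fatty acid oxidation, was at 28.3 ± 0.641 TPM and Cpt1b at 1.13 ± 0.421 TPM. In each of these 3 families the ranges of the leader and the next member did not overlap. Of its windows, of the length used for enolase, Cpt1b shared 91.1% with another gene, most often Gm44502. Acaca shared 42.8%, most often with Gm5182. The levels of Cpt1b and Acaca, and the lead of Cpt1a over Cpt1b, are therefore less certain. In folate metabolism Shmt2 led with 132 ± 3.76 over Shmt1 with 26.9 ± 0.759 TPM, and Mthfd2 was at 76.0 ± 2.61, Mthfd1l at 45.3 ± 1.3 and Mthfd1 at 36.5 ± 1.07 TPM. By CPM of the expected counts Mthfd1l was the highest of these folate dehydrogenases. Among the 4 large neutral amino acid transporters listed, Slc7a5 was highest at 76.5 ± 1.09 TPM, 91.1% of their summed TPM. All 38 single-gene enzymes of carbon metabolism listed reached 1 TPM in each library, from Gpi1 at 683 ± 0.875 TPM downwards, beside 46.6% of all protein-coding genes.

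In the COX4, COX6A, COX6B and COX8 families of respiratory chain subunits the ubiquitous form led. In the COX7A family Cox7a2l held 57.0% and Cox7a2 42.0% of the summed TPM, and all 3 members reached 1 TPM in each library. Cox4i1 was at 806, 786 and 778 TPM against 0.09, 0 and 0 TPM for Cox4i2, Cox6a1 was at 515 ± 1.52 against 0.19 ± 0.173 TPM for Cox6a2, and Cox8a was at 796 ± 36.0 TPM with Cox8b and Cox8c at 0. Cox6b2, usually known from testis, was at 33.9, 34.8 and 33.9 TPM beside 649.6 ± 16.2 TPM for Cox6b1. Slc25a5, an adenine nucleotide carrier, was at 735, 732 and 733 TPM and Slc25a4 at 226 ± 3.44 TPM. Ucp2, the uncoupling protein named in the genotype label, was at 695, 664 and 668 TPM. Ucp3 was at 0.03, 0.08 and 0.04 TPM and Ucp1 had no counts, which allows up to 0.0971 TPM. Ucp2 was thus the only uncoupling protein gene above 1 TPM of the 3. Nos2, the inducible nitric oxide synthase, was at 1.01 ± 0.0709 and Arg2 at 0.0333 ± 0.0306 TPM, and Arg1 had no counts. The plot of isozyme shares gives the metabolic families and their spread over libraries.

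**Figure D4:**
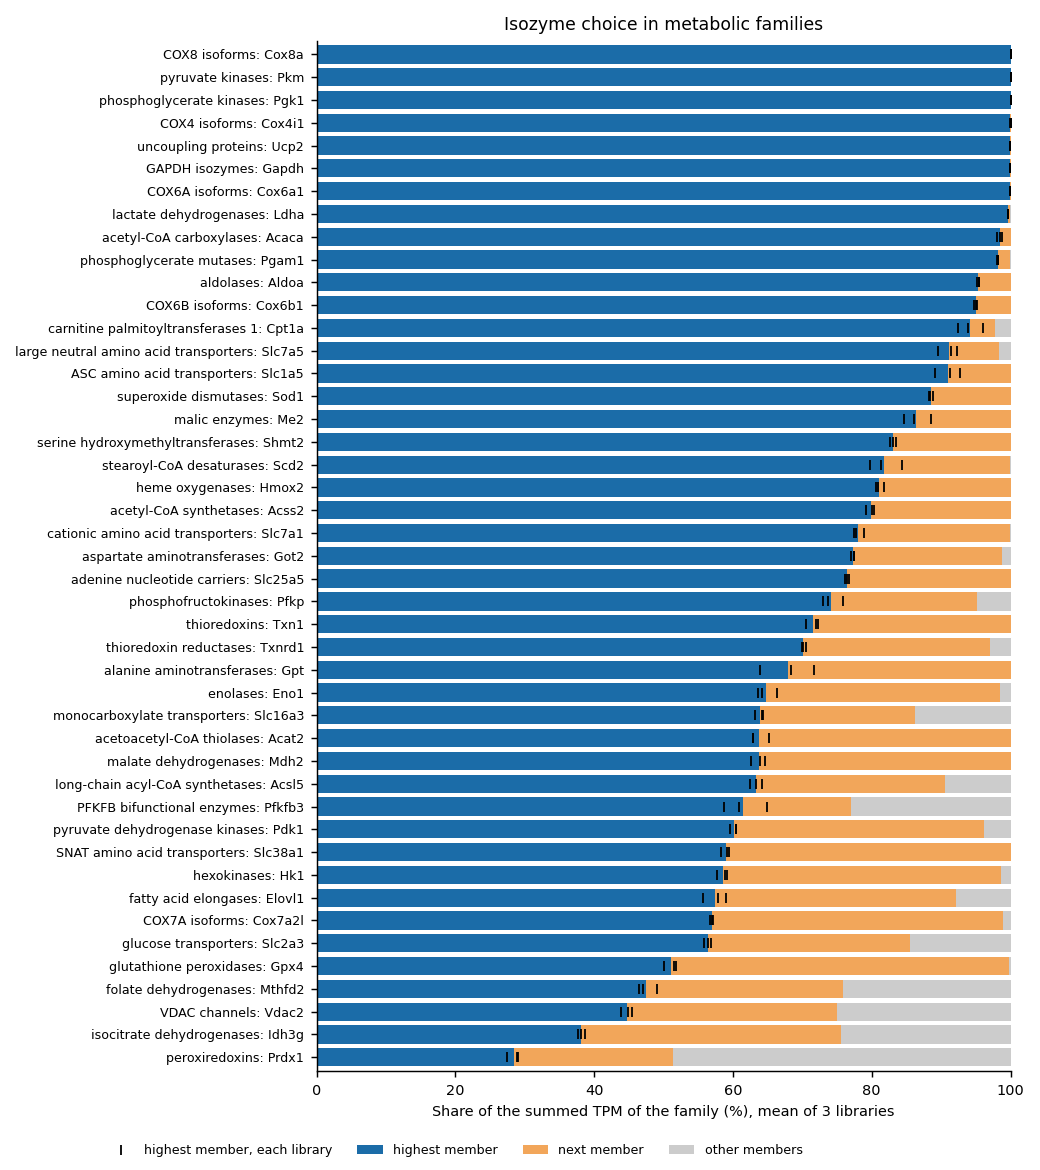
Share of the summed TPM of each metabolic family shown (%), mean of 3 vehicle libraries, for the highest member (named after the family), the next member and the others. Ticks mark the highest member's share in each library. Families at the top, such as pyruvate kinases, have nearly all of the sum in 1 member, while the isocitrate dehydrogenases and peroxiredoxins at the foot are divided among members.

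Cell cycle genes were present throughout: all 20 proliferation genes reached 1 TPM in each library, beside 46.6% of all protein-coding genes. The replication clamp Pcna was at 243 ± 5.82, the topoisomerase Top2a at 138 ± 2.82 and the helicase subunit Mcm6 at 128 ± 1.62 TPM. Ccnd3 led the D cyclins with 254, 268 and 249 TPM, Ccnd2 was at 91.1 ± 0.743 and Ccnd1 at 0.33 ± 0.0917 TPM. In counts, which are not divided by length, the order turned, with 11593, 11714 and 14044 expected counts for Ccnd2 and 9158, 9838 and 10567 for Ccnd3. CDK inhibitors were present as well, Cdkn1a, which encodes p21, at 246, 256 and 247 TPM and Cdkn2a at 126, 134 and 127 TPM. Among survival proteins Bcl2a1b was at 150.4, 151 and 155 TPM, Mcl1 at 80.0, 77.3 and 78.8 TPM and Bcl2 at 20.6, 20.0 and 20.7 TPM. All 3 restrain the mitochondrial route of cell death, and by CPM of the expected counts Mcl1 was the highest. Bcl2a1b and Bcl2a1d are 98.8% identical and share 56.8% and 54.7% of their windows of 100 bases with another gene, so their separate levels are less certain. The death effector Bax was at 244 ± 6.56 TPM and the BH3 protein Bcl2l11 at 6.06 ± 0.392 TPM.

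Of 70 genes listed as characteristic of naive, memory, effector, exhausted or resident T cells, 11 were under 1 TPM in each library, 15.7%, and 58 reached it in each. Over all 21951 protein-coding genes, 11324 were under 1 TPM in each library and 10234 (46.6%) reached it in each. The share at 1 TPM or more was nearly the same in 3 of the lists, with 21 of 24 effector genes (87.5%), 20 of 23 naive and memory genes (87.0%) and 13 of 15 exhaustion genes (86.7%), and 6 of 10 in the resident memory list. The effector list summed to 14865 ± 176 TPM, of which Gzmb alone gave 10054 ± 135, and the naive and memory list to 576 ± 5.69 TPM. Their median levels were closer, 44.3 and 9.26 TPM. The resident memory genes under 1 TPM were Itgae at 0.25, 0.2 and 0.24 TPM, Ahr at 0.3, 0.38 and 0.45 TPM, Itga1 at 0.63, 0.63 and 0.59 TPM and P2rx7 at 0.02, 0.1 and 0.12 TPM, while Rgs1, a G protein regulator, was at 328 ± 10.2 TPM. From the naive and memory list, Nsg2 was at 0.61, 0.91 and 0.92 TPM and Dapl1 at 0.53, 0.77 and 0.22 TPM. From the effector list, Il2, Cx3cr1 and S1pr5 were under 1 TPM, and from the exhaustion list Tox and Tox2. Only S1pr5 and Tox2 had at most 3 counts in each library, and the others had some reads, up to 79, 77.4 and 96.6 for Itga1.

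Of 113 marker genes of other cell types, 76 were under 1 TPM in each library, 60 of these with at most 3 counts in each. The other side was 30 genes (26.5%) that reached 1 TPM in each library, beside 46.6% of all protein-coding genes. Over all 21951 protein-coding genes, 11324 were under 1 TPM in each library and 9234 had at most 3 counts in each. For B cells, Cd79a, Ms4a1, Pax5 and Blnk had no counts, while Ighm, the μ heavy chain, was at 29.7, 30.5 and 30.3 TPM and Cd79b at 2.82, 2.68 and 2.61 TPM. For macrophages, Csf1r, Adgre1, C1qa, C1qb, C1qc, Marco and Fcgr1 had no counts and 2 of 12 markers reached 1 TPM, Cd68 at 36.9 ± 2.98 and Cd14 at 1.29 ± 0.290 TPM. Of 9 neutrophil markers none reached 1 TPM in each library. H2-Ab1, the class II β chain, was at 29.9, 31.3 and 30.2 TPM although H2-Aa, its α chain partner, was at 0.46, 0.74 and 0.26 TPM. The 2 class II chains pair on the cell surface, so the unequal levels concern partners. The dendritic cell list as a whole summed to 249 ± 4.88 TPM with 7 of 13 genes (53.8%) at 1 TPM or more in each library, beside 46.6% of all protein-coding genes. Its highest members were Batf3 and Ccr7, which T cells are known to express too, while Clec9a and Siglech had no counts. The γδ T cell list summed to 115 ± 5.66 TPM with 4 of 7, all of them receptor constant regions, and Sox13, a γδ lineage factor, was at 0.11 ± 0.03 TPM. Of 10 mast cell and basophil markers, 3 reached 1 TPM in each library, Mcpt8 at 11.7, 11.6 and 11.4 TPM, Cpa3 at 7.09, 5.51 and 7.12 TPM and Kit at 3.69, 3.24 and 3.78 TPM. The other 7 were under 1 TPM in each, 6 of them with at most 3 counts in each library, and Ms4a2 and Tpsab1 had none. Of the 10 NK cell markers, 7 reached 1 TPM in each library, among them Nkg7 and Eomes, which effector T cells also express, and Ncr1 did not. The gp100 antigen gene Pmel was at 0.19, 0.55 and 0.66 TPM. The part of other cells in any of these levels was not tested, and fewer cells of a type and less RNA per cell cannot be told apart in bulk RNA.

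Mitochondrial genes were measured together with their copies on chromosome 1, a comparison that was added after the values were seen. The 13 mitochondrial protein-coding genes held 2.97 ± 0.0844% of TPM, and 7 pseudogenes on chromosome 1 that match them held 2.18 ± 0.0931%. Gm28437, which is identical to mt-Co3 over 783 bases, was at 6015, 5247 and 5686 TPM, while mt-Co3 itself was at 734, 1154 and 982 TPM. Gm28661, identical to mt-Co2 over 681 bases, was at 4737 ± 222 TPM beside 560.2 ± 70.3 TPM, and Gm10925, identical to mt-Atp6 over 678 bases, at 3928 ± 192 beside 497 ± 35.6 TPM. The pseudogene took 89.3 ± 1.61% of the summed counts of the pair for mt-Co2, 88.9 ± 2.14% for mt-Nd3, 88.7 ± 0.873% for mt-Atp6, 85.4 ± 3.58% for mt-Co3 and 84.2 ± 7.91% for mt-Nd4l. For mt-Co1 the share was 9.56 ± 0.311%, and for mt-Nd4 1.3 ± 0.103%. With sequences that are identical, or for mt-Nd3 differ at 1 base, the source of such reads cannot be told apart, so the level of these 5 mitochondrial genes in the tables is uncertain to this extent. The highest mitochondrial gene, mt-Atp8 at 13194, 13290 and 14722 TPM, had an effective length of 24.7 bases, and its TPM rests on 7386, 7160 and 9458 expected counts.

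**Figure D5:**
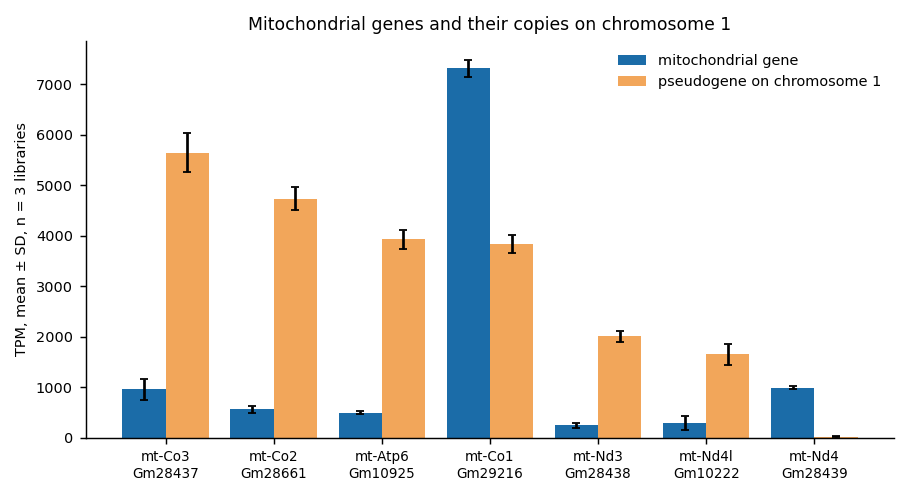
TPM, mean ± SD of n = 3 vehicle libraries, of 7 mitochondrial genes (left bars) and of the chromosome 1 pseudogene that matches each (right bars). In 5 of the 7 pairs the pseudogene bar is the taller, and in mt-Co1 and mt-Nd4 the mitochondrial bar is.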

How the data were processed

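RNA of 3 vehicle libraries was sequenced as paired reads of 150 bases, per the labels' protocols, after removal of ribosomal RNA with a stranded kit. The submitters' processing notes name mm10 and, without their roles, RSEM 1.3.1, STAR 2.7.0f, cutadapt 1.18 and bcl2fastq. The authors deposited 1 gene table per library, which per the file headers holds expected counts, effective lengths and TPM. Whether counting used strand is not given in the sources used here. Each table lists 55450 genes, all equal in ID and symbol to GENCODE M21, which supplied coordinates and transcripts (GRCm38, mm10).

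TPM were used as deposited. Gene lists (124 lists, 734 genes, 733 matched) and families were chosen with earlier results of these data known. Text names up to 8 highest members of a role or marker list and any member under 1 TPM in each library, all members of families, the 30 highest nuclear protein-coding, 13 mitochondrial and 10 noncoding genes, the top 5 segments of each receptor chain, and the 10 most variable genes. A few genes outside this rule were chosen after their values were seen, in receptor and integrin pairs and in the mitochondrial copies. A family was counted with a summed mean of at least 5 TPM and led where 1 member was highest in each library and at least 2 times the next. Identity was computed from pairwise alignments, and MAFFT was used only to choose the printed granzyme window. A few list members are not reported singly or plotted, but enter every count and sum. Counting was tested on simulated data. Values were computed with Python 3.11.15, pandas 2.3.3, numpy 2.4.6 and Biopython 1.88, and plotted with matplotlib 3.10.9. Alternatives were CPM of the expected counts, rescaling to nuclear protein-coding genes, the median, a filter on low counts and short genes, other thresholds, and each library left out.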

Additional observations from a re-analysis of the deposited data

How the results depend on the processing

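No paired analysis was possible because only 1 group of libraries is described and no test was made. The 35 values recomputed under the alternatives kept within 1.5 times of the reported value in 30 cases. The 5 that moved were these. The number of genes that hold the largest share of the RNA was 519 by CPM of the expected counts, which are not divided by length, and 3129 for a share of 900000 TPM, against 114. The number of families led by 1 member was 32 of 87 at a lead of 5 times, against 59 at a lead of 2 times. The expected T cell genes under the level were 21 at 5 TPM, and 4 of 62 when genes with under 10 expected counts in a library or an effective length under 200 bases were left out, against 11. Leaving out each library in turn gave 11278 to 11312 detected genes, against 11174, since fewer libraries had to reach 1 TPM. It also gave 113 to 114 genes for the share of 500000 TPM, 59 to 60 led families and 11 to 12 expected T cell genes under 1 TPM. By CPM of the expected counts the leader changed in 8 of 87 families, among them Irf1 to Irf4, Bcl2a1b to Mcl1, Ccnd3 to Ccnd2 and Mthfd2 to Mthfd1l. Without replicate 2 it changed in 1, Patz1 to Zbtb7a, and without replicate 1 or 3 in 0. Of 808 genes compared, 615 share no window of 100 bases with another gene and 49 share over 50% of theirs, which limits the levels of those 49.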

Other observations

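Noncoding and histone RNAs had values that belong in no comparison, and the histone genes were looked up after the main levels were known. The kit named in the labels removes ribosomal RNA and keeps other RNA, and levels of some RNAs known to lack a poly(A) tail are given here. The 70 genes of the histone clusters, whose mRNAs mostly end without such a tail, held 0.00728 ± 0.000694% of TPM, with 10 genes at 1 TPM or more in each library, while Pcna was at 243 ± 5.82 and Top2a at 138 ± 2.82 TPM. Rmrp, the RNA of a nuclear ribonuclease, was at 7.19 ± 2.23, Rn7sk at 67.4 ± 8.04 and Malat1, a nuclear long noncoding RNA, at 62.5 ± 4.73 TPM. Rmrp shares 100% of its windows of 100 bases with another entry of the same symbol, and only the higher entry is given. Rn7sk shares 61.2% with another gene, so the levels of Rmrp and Rn7sk are less certain. The effect of library preparation on these levels was not tested. Among noncoding genes other than the chromosome 1 pseudogenes, the highest were Gm10076 at 2232 ± 103, the processed pseudogene Gm15500 at 1117 ± 70.2, 2410006H16Rik at 1057 ± 11.5 and AW112010, an interferon-induced transcript, at 973 ± 32.7 TPM. Gm15500 shares 919 of its 920 windows of 100 bases with another gene, most often Rpl5, and Gm10076 shares 84 of 285, most often with Rpl41. Reads from those windows cannot be assigned to 1 gene by sequence alone. Gas5, a host of small nucleolar RNAs, was at 971 ± 13.4 TPM.

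The largest spreads between the libraries were seen in a few genes, given here with their counts. Hmga1b had 71.6, 4.01 and 2.68 TPM from 90.2, 126 and 98.5 expected counts, so its TPM differed far more than its counts. Mycbp had 6.89, 26.6 and 8.09 TPM from 195, 232 and 249 expected counts. Pagr1a, at 3.64, 39.2 and 7.56 TPM, and Gm42742, at 27.4, 0.22 and 20.5 TPM, overlap on the same strand of chromosome 7 and were high in different libraries. Of the 10 protein-coding genes with the largest coefficient of variation, 5 overlap another gene on the same strand, against 23.4% of the 6737 genes at 10 TPM or more.

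Xist, the RNA that silences an X chromosome, was at 44.1, 48.5 and 44.9 TPM, and the Y-linked genes Ddx3y, Eif2s3y, Kdm5d and Uty had no counts in any library. The labels give no sex.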
